A study of Mus musculus with 13 samples.

Results

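The genes described here are 35 genes of homologous recombination, the Fanconi pathway, mismatch repair and the DNA damage checkpoint. They were taken from a list of gene symbols, drawn up with earlier results of these data known, and each symbol was matched to its Ensembl identifier. All 35 were found among the 16382 genes of the deposited tables, and all 35 passed the filter on low counts that left 13142 genes to test. They were measured by RNA-seq in C2C12 myotubes, multinucleated cells that a mouse myoblast line forms by fusion in low serum. Myotubes differentiated for 8 days were given fresh medium with the vehicle DMSO (CON) or 10 μM PEA (palmitoylethanolamide, an endogenous fatty acid amide). Their RNA was collected after 24 h. Each treatment had 6 libraries. According to the methods, wells were prepared in duplicate in each of 3 repeats. Which libraries share a repeat is not given in the labels, so a p-value here measures the spread between libraries, part of which may be technical. C2C12 is a single cell line, and such cultures can hold unfused cells beside the myotubes.

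The libraries held 12354845 to 50397444 estimated counts, with a median of 18420606. The deepest, CON replicate 1, exceeded the next by a factor of 2.25. Values below are normalized counts, the authors' estimated counts divided by 1 factor per library. Among markers of proliferating cells, 6 of 8 were called higher in PEA (among them Mki67, Top2a and Cdk1). Pcna (log2 fold change 0.18, adjusted p = 0.0636) and Mcm2 (0.22, adjusted p = 0.0630) were not called. The sum of all 8 ran from 6122 to 9190 in CON and from 9690 to 11571 in PEA, with CON replicate 2 the highest of its group. All 10 myotube markers were detected and all 10 had a log2 fold change below 0 (median -0.21), with 3 called lower (Myh8, Tnnt3 and Mymx), 6 at an unadjusted p below 0.05 and 0 called higher, while their sums overlapped between CON (82094 to 130838) and PEA (83874 to 101876). The sums of 10 myoblast markers overlapped as well, with 1 gene called (Cd34, higher). Of these 10, 4 had a log2 fold change above 0 and 6 below, among them Spry1 (-0.21, adjusted p = 0.0508). Of 6 fibroblast markers 1 was called (Dcn, higher), and Thy1 was near 0. Of the 5 tested, 3 had a log2 fold change above 0 and 2 below, among them Lum (-0.77, adjusted p = 0.0851). The part of these markers in the results that follow was not tested.

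Homologous recombination repairs a broken chromosome by copying the intact sister, which exists only after the DNA has been replicated. Many of its genes, though not all, are known to be most expressed in S and G2 phase. A break is first trimmed back to single strands, mediators then prepare the strand to pair with the sister, and nucleases and helicases later take apart the joined molecules. The Fanconi pathway detects crosslinks between DNA strands, attaches ubiquitin to a pair of scaffold proteins, and hands the lesion to recombination. The checkpoint kinases ATM and ATR and their targets CHK2 and CHK1 hold the cell cycle while repair proceeds. Nuclei inside myotubes have left the cell cycle.

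Genes of most roles rose in PEA, among them Brca1 and Brca2 of the mediators, Fancd2 and Brip1 of the Fanconi pathway and Msh6, while Atr, Mus81, Nbn and Fancc did not pass the test and had log2 fold changes of -0.01, -0.10, -0.05 and -0.03. Of the 35 members, 19 were called higher by edgeR's quasi-likelihood test with Benjamini-Hochberg adjustment (adjusted p below 0.05), and 0 were called lower. Over all genes tested, 6.31% were called higher and 4.74% lower. The members' median log2 fold change was 0.49, against 0.01 for all genes tested, and 30 of 35 were above 0. At an unadjusted p below 0.05 there were 25 members higher and 0 lower, against 14.3% and 13.1% of all genes tested. DESeq2 called 22 higher and 0 lower (backgrounds 7.48% and 7.03%), and limma on the deposited normalized counts called 19 and 0 (6.70% and 4.83%). In bulk RNA, more cells of a type and more RNA per cell cannot be told apart.

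By role, 5 of 9 recombination mediators were called higher (median log2 fold change 0.53), as were 4 of 6 genes of break ends and their resection (0.45), 1 of 3 junction nucleases (0.14), 5 of 9 Fanconi genes (0.58), the 1 mismatch repair gene (0.38) and 3 of 7 checkpoint kinases and adaptors (0.28). For 9 members every PEA library lay above every CON library, which holds for 2.53% of all genes tested, and for 0 members every PEA library lay below (background 1.81%). These were Brca1, Brca2, Rbbp8, Eme1, Fanca, Fancg, Fancd2, Brip1 and Msh6, and no checkpoint gene was among them. Leaving out any library can only keep or raise this count, which then ran from 9 to 14 members (backgrounds 2.72% to 5.52%), with both highest values without CON replicate 2. Of the 10 members that were called but overlapped, 7 had their highest CON value in that library.

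**Figure D1:**
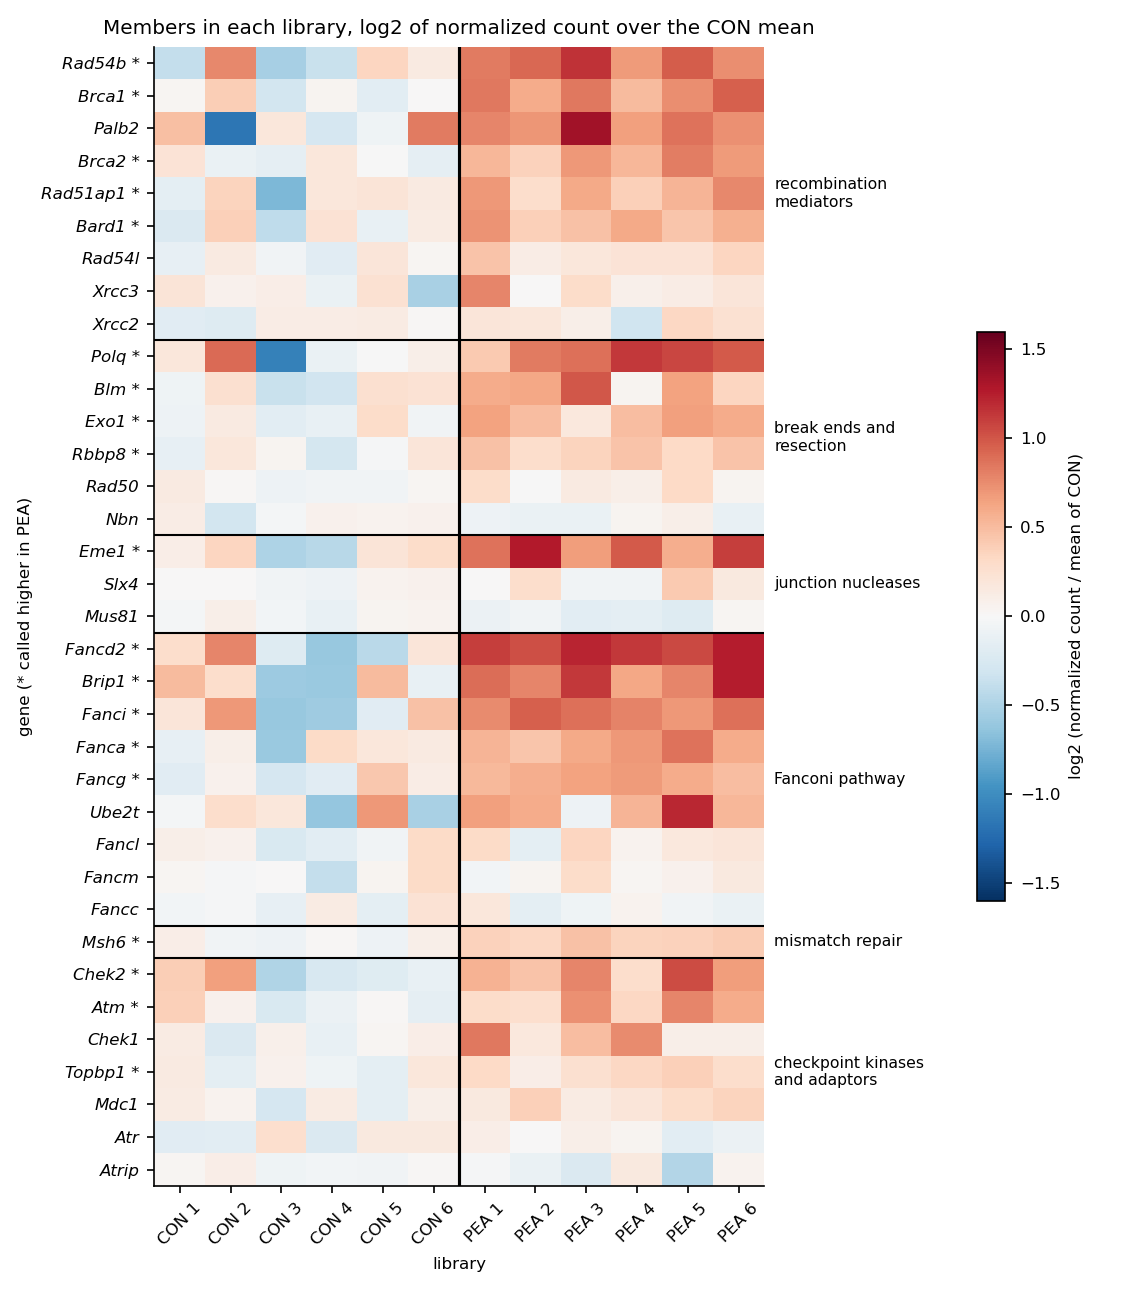
Each cell gives the log2 of a member's normalized count over its mean in CON, for the 6 CON libraries (left) and the 6 PEA libraries (right), with genes grouped by role and sorted by fold change, and an asterisk on the 19 members called higher. The library medians over the 35 members ran from -0.14 (CON replicate 3) to 0.10 (CON replicate 2) in CON and from 0.33 (PEA replicate 2) to 0.52 (PEA replicate 1) in PEA.

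Most members varied more among the CON libraries than among the PEA libraries. CON replicate 3 held the lowest CON value for 18 of 35 members and CON replicate 4 for 9, whereas CON replicate 2 held the highest for 12. The coefficient of variation was larger in CON for 27 of 35 members, and its median over the members was 15.1% for CON against 11.6% for PEA. Over all genes tested it was larger in CON for 65.8%, with medians of 10.2% and 8.25%. The Fanconi genes were the role with the lowest median in any single library, -0.38 on the log2 scale in CON replicate 4.

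Promoters of many S phase genes carry sites for E2F factors and for the CCAAT-binding factor NF-Y, and those of many G2 genes carry the CHR element. The 250 bases before the start of the canonical transcript (GENCODE, GRCm39) were searched on both strands for the E2F type (letters TTCCCGC or the variant TTGGCGC, likewise the variant TTCGCGC or the variant TTGCCGC), for CCAAT, and for TTTGAA (CHR). An E2F-type match was found for 8 of 35 members (22.9%), against 12.5% of 12130 promoters of the protein-coding genes tested. It was present for 5 of the 19 members called higher, 3 of the 16 not called, and 5 of 10 end joining genes, of which none was called. CCAAT was found for 17 of 35 members (48.6%), against 36.4% of the promoters of genes tested, and CHR for 4 of 35 (11.4%), against 12.2%. A CCAAT match can overlap an E2F-type one, as it does for Ube2t. The 150 bases before the start are shown for 4 of the 8 members whose 250-base window holds no annotated exon, with matches in capitals, to set a called mediator and a called Fanconi gene beside a checkpoint adaptor at the threshold (adjusted p = 0.0522) and a nuclease subunit that was not higher. Bard1 lies on the minus strand (chr1:71142306-71142455), Fanca on the minus strand (chr8:124045332-124045481), Mdc1 on the plus strand (chr17:36152234-36152383) and Mus81 on the minus strand (chr19:5538449-5538598).
Bard1: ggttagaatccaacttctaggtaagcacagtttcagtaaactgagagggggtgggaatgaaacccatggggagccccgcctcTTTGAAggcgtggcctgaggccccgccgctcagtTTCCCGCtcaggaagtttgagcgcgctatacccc
Fanca: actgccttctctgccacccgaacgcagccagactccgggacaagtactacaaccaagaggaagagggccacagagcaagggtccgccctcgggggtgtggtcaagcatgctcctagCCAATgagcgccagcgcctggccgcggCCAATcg
Mdc1: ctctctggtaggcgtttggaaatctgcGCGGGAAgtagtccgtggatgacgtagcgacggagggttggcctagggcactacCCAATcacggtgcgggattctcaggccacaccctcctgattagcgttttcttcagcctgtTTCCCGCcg
Mus81: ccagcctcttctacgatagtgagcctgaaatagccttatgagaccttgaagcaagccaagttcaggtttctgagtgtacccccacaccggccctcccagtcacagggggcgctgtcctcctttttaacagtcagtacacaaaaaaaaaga
Bard1 holds a CHR match starting at -68 and an E2F-type match starting at -34, where -1 is the base before the start, and a second E2F-type match at -176, outside the bases shown. Fanca holds CCAAT at -34 and at -7. Mdc1 holds E2F-type matches at -123 and -9 and CCAAT at -69, and none of the 3 motifs is present in these letters of Mus81. The matches describe the sequence, and binding was not measured.

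Among the recombination mediators, Brca1 (ENSMUSG00000017146, GRCm39 chr11:101379577-101442781, minus strand) had the smallest p. Its product pairs with BARD1 in a ubiquitin ligase that promotes resection. Brca1 ran from 165 to 264 normalized counts in CON (median 204) and from 287 to 393 in PEA (median 349). Every PEA library exceeded CON replicate 2, the highest control. The log2 fold change was 0.74 (SE 0.11, adjusted p = 0.000892), and the call held in each of the 12 fits that left out a library. Its partner Bard1 rose by 0.52 on the log2 scale (adjusted p = 0.0131), with 5 of 6 PEA libraries above all controls. Brca2, a mediator that acts on resected single strands, rose by 0.60 (adjusted p = 0.00278) without overlap between the groups. Brca2 shares 12.3% of its exon bases with N4bp2l1 on the opposite strand, whose log2 fold change was 0.49 (adjusted p = 0.187). Palb2, the bridge between BRCA1 and BRCA2, had a log2 fold change of 0.71, close to that of Brca1, but on few counts (as few as 11 estimated counts in a library) and with an adjusted p of 0.0900.

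Of the pair of RAD54 paralogs, motor proteins that act during invasion of the sister strand, Rad54b was called by edgeR with all libraries and Rad54l was not, and the test of their ratio, given with the other ratios, passed with all libraries but in only 1 of 12 tests that left out a library. Rad54b had the largest fold change of the mediators. It ran from 45.1 to 110.6 normalized counts in CON (median 61.6) and from 105 to 146 in PEA (median 119). CON replicate 2 was the only control inside the PEA range. Rad54b rose by 0.84 on the log2 scale (SE 0.20, adjusted p = 0.0149). Rad54l ran from 232 to 301 in CON (median 262) and from 287 to 363 in PEA (median 308). The groups overlapped in 2 libraries of each. Its log2 fold change of 0.26 (SE 0.09, adjusted p = 0.0562) did not pass the threshold, but it passed in 2 of 7 alternatives with all libraries (lowest adjusted p = 0.0296, limma-voom) and in 2 of 12 fits that left out a library. Rad54b shares 33.7% of its exon bases with Fsbp on the same strand, and Rad54l shares 22.2% with Lrrc41 on the opposite strand, whose own log2 fold change was -0.05. Whether counting used strand is not stated.

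Rad51ap1, which stimulates strand pairing, rose by 0.53 (adjusted p = 0.0326), and this call was lost in 6 of 12 fits that left out a library. Xrcc2 and Xrcc3, which act with the mediators, were not called. Xrcc2 had a log2 fold change of 0.14 (95% interval -0.08 to 0.36) and Xrcc3 of 0.24 (-0.10 to 0.59). In Xrcc3, PEA replicate 1 lay at 105 against 75.5 for the next PEA library, and 43.4% of its exon bases are shared with Klc1 on the opposite strand, a far more abundant gene that was itself called lower (log2 fold change -0.17, adjusted p = 0.0425).

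Of the genes that act on break ends, Rbbp8, Exo1, Blm and Polq were called higher, and Rad50 and Nbn, subunits of the MRN complex, did not pass. Rbbp8 encodes CtIP, which starts resection together with MRN. It ran from 317 to 441 normalized counts in CON (median 388) and from 469 to 532 in PEA (median 509). The groups did not overlap, and Rbbp8 rose by 0.39 on the log2 scale (SE 0.08, adjusted p = 0.00704). Polq encodes polymerase theta, which joins resected ends at short stretches of matching bases. It was the least abundant member per kb of transcript, with 21.6 to 85.9 normalized counts in CON (median 47.2) and 60.9 to 99.9 in PEA (median 87.1). The groups overlapped, with CON replicate 2 above 3 PEA libraries. The log2 fold change was 0.79 (SE 0.24, adjusted p = 0.0431), and only 2 of 12 fits that left out a library kept the call, with the highest adjusted p of 0.0899 without PEA replicate 5.

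Exo1, an exonuclease of long-range resection that also serves mismatch repair, rose by 0.52 (adjusted p = 0.00911). Blm, the helicase mutated in Bloom syndrome, had a log2 fold change of 0.55 (adjusted p = 0.0477), and the call held in 2 of 12 fits that left out a library and in 5 of 7 alternatives that used all libraries. Rad50, the structural subunit of MRN, ran from 711 to 832 in CON (median 745) and from 751 to 941 in PEA (median 819). The groups overlapped widely, and its log2 fold change was 0.15 (SE 0.06, adjusted p = 0.140). Nbn, the subunit that recruits ATM, had a log2 fold change of -0.05 (95% interval -0.19 to 0.09). The third subunit, Mre11a, which is no member, had 0.10 (-0.01 to 0.21).

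**Figure D2:**
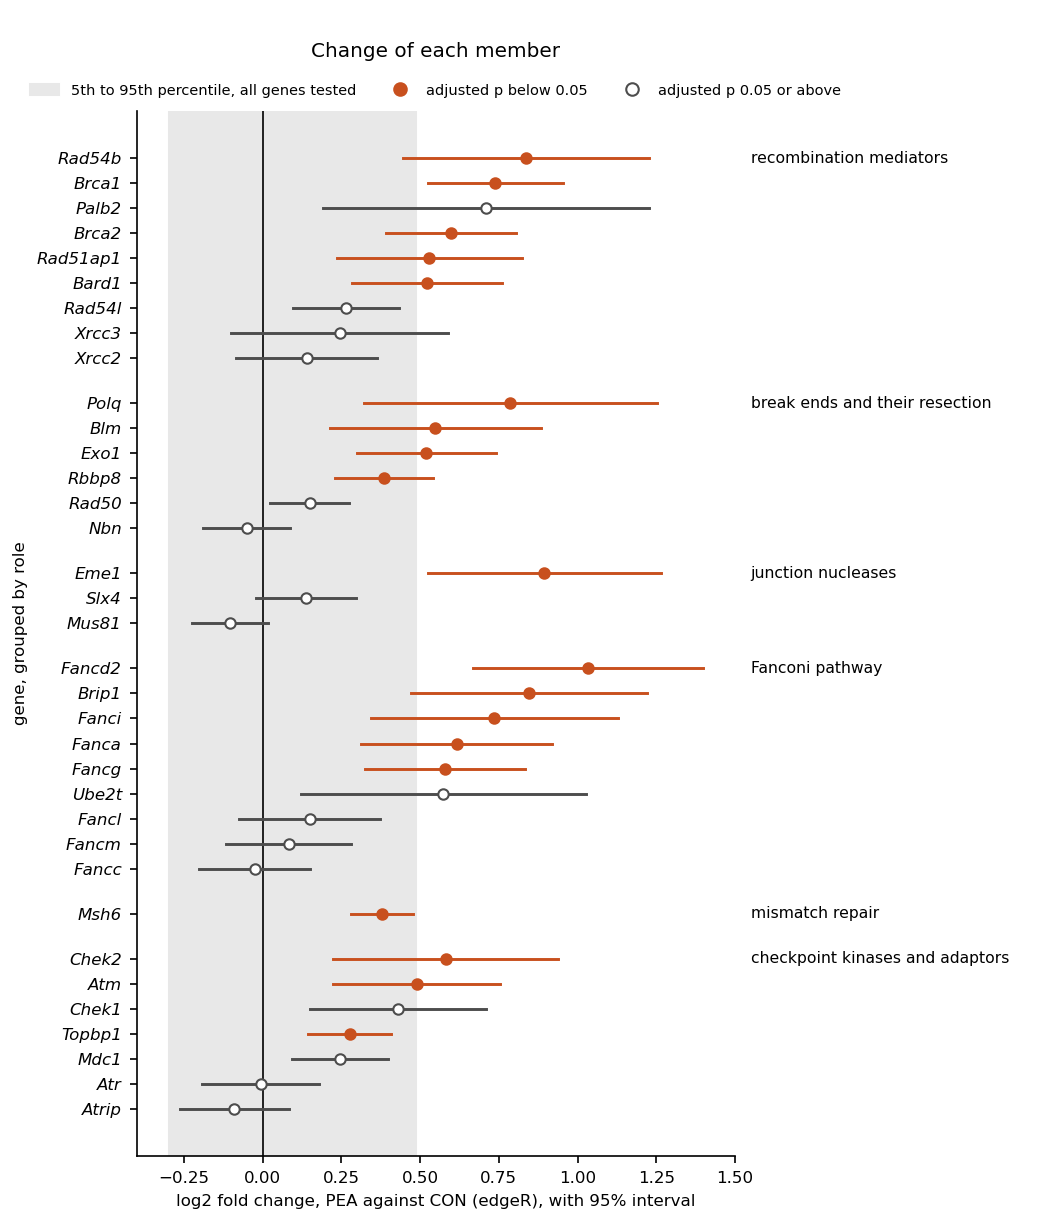
Points give the log2 fold change of each member, PEA against CON, from edgeR, lines its 95% interval, and the grey band the 5th to 95th percentile of all genes tested (-0.30 to 0.49). The 19 filled points passed an adjusted p of 0.05, and they run from 0.28 (Topbp1) to 1.03 (Fancd2).

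The nuclease MUS81-EME1 cuts joined DNA molecules, with MUS81 as the catalytic and EME1 as the regulatory subunit, and its 2 genes moved unequally. Eme1 (ENSMUSG00000039055, chr11:94535822-94544812, minus strand) ran from 32.0 to 57.2 normalized counts in CON (median 50.2) and from 67.4 to 109 in PEA (median 85.7). The groups did not overlap, and the log2 fold change was 0.90 (SE 0.19, adjusted p = 0.00780). Mus81 ran from 454 to 528 in CON (median 496) and from 429 to 504 in PEA (median 455). Here the groups overlapped, and the log2 fold change was -0.10 (95% interval -0.22 to 0.02, adjusted p = 0.294). Eme1 shares 43.8% of its exon bases with Lrrc59 on the opposite strand, a gene with a mean of 6767 normalized counts in CON and a log2 fold change of 0.02. Slx4, the scaffold that gathers several nucleases, had a log2 fold change of 0.14 (95% interval -0.02 to 0.30).

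Of the Fanconi genes, the 5 called had log2 fold changes of 0.58 or more, Ube2t had 0.57 without a call, and Fancl, Fancm and Fancc lay between -0.03 and 0.15. Fancd2 (ENSMUSG00000034023, chr6:113508412-113573982, plus strand), one of the pair of scaffolds that receive ubiquitin, changed most of all members. It ran from 38.9 to 102 normalized counts in CON (median 59.8) and from 122 to 142 in PEA (median 129). All 6 PEA libraries exceeded all CON libraries and lay close together, with a coefficient of variation of 6.08% against 37.0% in CON. Fancd2 rose by 1.03 on the log2 scale (SE 0.19, adjusted p = 0.00339), and the call held in each of the 12 fits that left out a library. Fanci, the other scaffold, rose by 0.74 (adjusted p = 0.0276). In Fanci CON replicate 2 reached 91.0, just above the lowest PEA library at 90.8, and 9 of 12 fits that left out a library kept the call.

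Brip1, a helicase that binds BRCA1, rose by 0.85 (adjusted p = 0.0112), and the core complex genes Fanca and Fancg rose by 0.62 (adjusted p = 0.0188) and 0.58 (adjusted p = 0.0105), each of the 3 without overlap. Fanca lost its call without PEA replicate 5 (adjusted p = 0.0509), and it shares 28.5% of its exon bases with Zfp276 on the opposite strand, whose log2 fold change was 0.05. Ube2t, the conjugating enzyme that passes ubiquitin to FANCD2, had a log2 fold change of 0.57 with wide spread in both groups (adjusted p = 0.115). Fancl, the ligase itself, had 0.15 (95% interval -0.07 to 0.37), Fancm, the anchor on DNA, 0.08 (-0.12 to 0.28), and Fancc, a further core subunit, -0.03 (-0.20 to 0.15).

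Msh6 (ENSMUSG00000005370, chr17:88282418-88298320, plus strand) was the mismatch repair member, and of all 35 it had the smallest p. It encodes a subunit of the clamp that recognises mispaired bases. It ran from 732 to 837 normalized counts in CON (median 765) and from 973 to 1075 in PEA (median 1000.0). The groups did not overlap. Msh6 rose by 0.38 on the log2 scale (SE 0.05, adjusted p = 0.000467), a smaller change than in every other member called except Topbp1, on values that varied little (coefficients of variation of 6.00% in CON and 3.52% in PEA). Msh6 shares 10.7% of its exon bases with Fbxo11 on the opposite strand, whose log2 fold change was -0.03.

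The checkpoint genes had the lowest median log2 fold change (0.28) of the 4 roles with more than 3 members. Topbp1 (ENSMUSG00000032555, chr9:103182356-103227631, plus strand), the adaptor that activates ATR, had the smallest p. It ran from 764 to 964 normalized counts in CON (median 854) and from 923 to 1115 in PEA (median 1053). CON replicate 6 was the highest control, and 5 of 6 PEA libraries lay above it. The log2 fold change was 0.28 (SE 0.07, adjusted p = 0.0162), and the call held in each of the 12 fits that left out a library.

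Atm, the kinase that responds to double-strand breaks, ran from 95.6 to 147 in CON (median 110.3) and from 137 to 194 in PEA (median 157). CON replicate 1 lay above 3 of the PEA libraries. Atm rose by 0.49 on the log2 scale (SE 0.13, adjusted p = 0.0290), and 6 of 12 fits that left out a library kept the call. So did 6 of 7 alternatives with all libraries (highest adjusted p = 0.0555). Chek2, the kinase that ATM activates, ran from 72.0 to 158 in CON (median 90.3) and from 122 to 206 in PEA (median 154). CON replicates 1 and 2 lay inside the PEA range. At the threshold, with a log2 fold change of 0.58 (SE 0.18, adjusted p = 0.0498), it kept its call in 3 of 12 fits that left out a library. In alternatives with all libraries Chek2 was called in 4 of 7 (highest adjusted p = 0.0547).

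Atr, the kinase that responds to stalled forks, ran from 297 to 419 in CON (median 349) and from 311 to 375 in PEA (median 355). The PEA libraries lay within the CON range. For Atr the log2 fold change was -0.01 (95% interval -0.19 to 0.18, adjusted p = 0.977), and its sign turned under some alternatives. Atrip, the partner that brings ATR to single strands, had -0.09 (-0.26 to 0.08), and it shares 10.1% of its exon bases with Trex1 on the same strand, a gene called higher (log2 fold change 0.67, adjusted p = 0.0156). Chek1, the kinase that ATR activates, ran from 114 to 147 in CON (median 139) and from 142 to 239 in PEA (median 170). Its PEA libraries spread widely, with replicates 1 and 4 at 239 and 226 and replicates 5 and 6 at 143 and 142. The log2 fold change of 0.43 (SE 0.14, adjusted p = 0.0609) did not pass the threshold, and it passed in 1 of 7 alternatives with all libraries (DESeq2, adjusted p = 0.0369). Mdc1, the scaffold that gathers repair factors at breaks, had a log2 fold change of 0.25 (adjusted p = 0.0522), which lies at the threshold. It passed in 4 of 7 alternatives with all libraries (lowest adjusted p = 0.0372, DESeq2) and in 4 of 12 fits that left out a library.

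Ratios of pairs of members within a library, which do not depend on its scaling, tested whether partners changed unequally. Of 16 ratios, 4 passed a two-sided exact permutation test over the 924 assignments of the libraries after adjustment over the 16, for which the smallest unadjusted p is 0.00216. The ratio of Mus81 to Eme1 fell from a geometric mean of 11.0 in CON (9.24 to 15.0) to 5.40 in PEA (4.34 to 6.36), with all 6 PEA libraries below all CON libraries (adjusted exact p = 0.0173). Brca1 to Rad50, a mediator against an MRN subunit, rose from 0.268 (0.232 to 0.346) to 0.405 (0.357 to 0.507), with all 6 PEA libraries above (adjusted exact p = 0.0173). These 2 ratios passed in each of the 12 tests that left out a library.

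Rad54l to Rad54b fell by 0.63 on the log2 scale and Chek1 to Atr rose by 0.41 (adjusted exact p = 0.0433 for each), and in both the groups overlapped. Each of these 2 passed in 1 of the 12 tests that left out a library, Rad54l to Rad54b without CON replicate 2 and Chek1 to Atr without CON replicate 1. The ratio of Atr to Atm differed by -0.50 (SE 0.20, adjusted exact p = 0.0831) and Fancd2 to Fanci by 0.30 (SE 0.11, adjusted exact p = 0.0940), neither past the threshold. Rad50 to Nbn (0.19, SE 0.08, adjusted exact p = 0.0940) and Brca1 to Bard1 (0.21, SE 0.10) did not pass either. The same holds for Chek1 to Chek2 (-0.22, SE 0.30), Fanca to Fancg (0.04, SE 0.13) and Exo1 to Msh6 (0.13, SE 0.13). With a library left out, 3 further ratios passed in 1 test each, the ratio Atr to Atm without CON replicate 1 (-0.61, adjusted exact p = 0.0433), the ratio Fancd2 to Fanci without CON replicate 3 (0.38, adjusted exact p = 0.0462) and the ratio Rad50 to Nbn without CON replicate 2 (0.26, adjusted exact p = 0.0173).

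**Figure D3:**
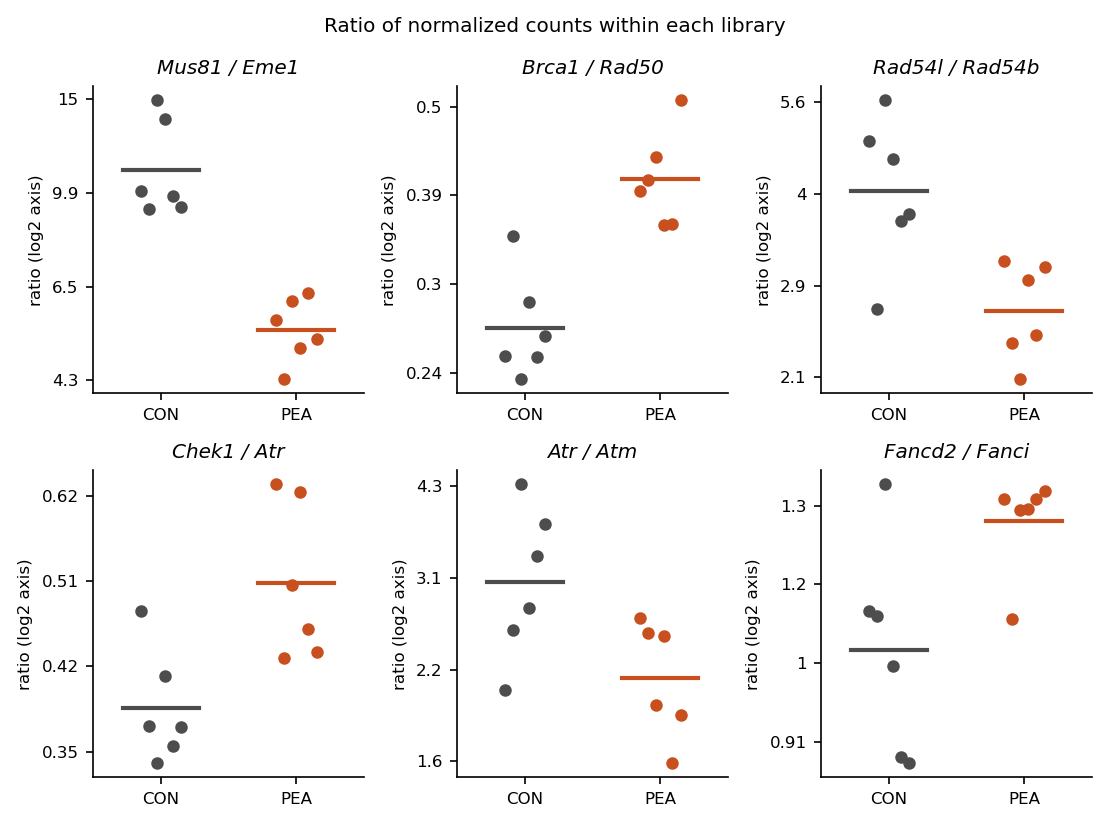
Points give the ratio of normalized counts of 2 members in each of 6 CON and 6 PEA libraries (in order of replicate number, log2 axis, each panel with its own range) and bars the geometric mean. The groups are apart for Mus81 to Eme1 and for Brca1 to Rad50, and they overlap in the other 4 panels.

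Less abundant members had larger fold changes. Per kb of canonical transcript, the members' median level in CON was 30.7 normalized counts, from 5.74 (Polq) to 248 (Nbn), against a median of 175 for all genes tested. Of the 17 members below the members' median level 12 were called (median log2 fold change 0.62), and of the 18 at or above it 7 were called (0.15). Spearman's rho between level in CON and log2 fold change was -0.74 across the 35 members and -0.31 across 13131 genes tested. The points share the same 12 libraries and the CON mean enters both axes, so this is a description of these genes. Msh6, Topbp1 and Rbbp8 combined a level above 100 per kb with a call, while Nbn, Mus81, Atrip and Rad50, also above 100 per kb, were not called.

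**Figure D4:**
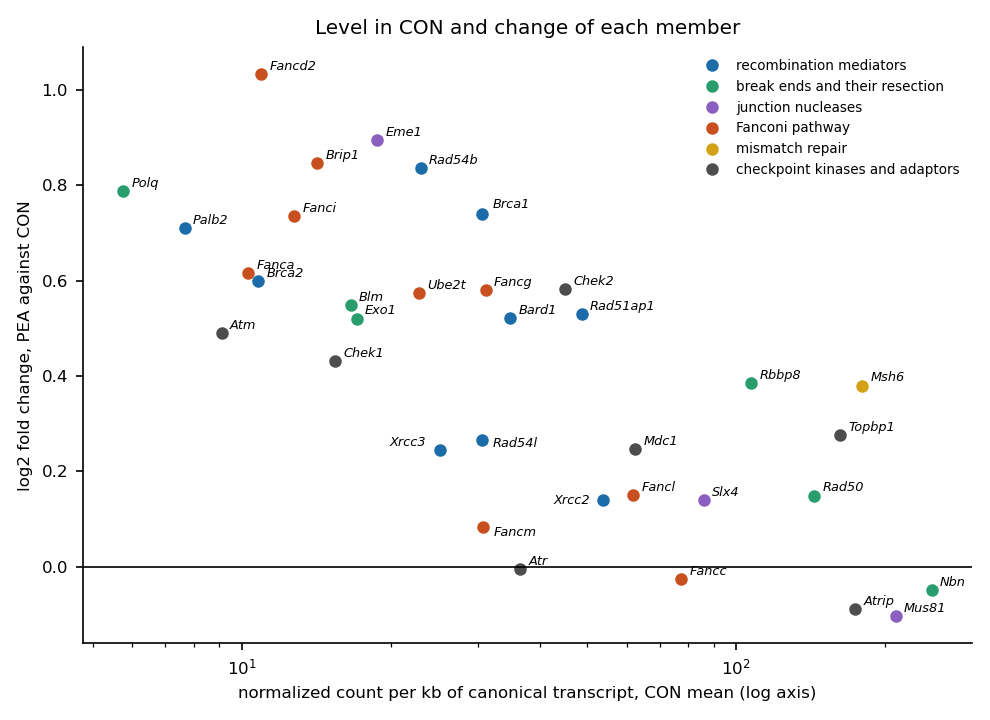
Points give each member's mean level in CON (normalized counts per kb of canonical transcript, log axis) against its log2 fold change in PEA, coloured by role. The members below 20 per kb all had a log2 fold change above 0.4, and those below 0.1 lay at 30 per kb or more.

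Other genes of these pathways had a lower median change than the members. Members and lists were chosen with earlier results of these data known, so this difference describes the lists and not the pathways. Of 80 further genes of recombination, the Fanconi pathway, mismatch repair and the checkpoint, 78 were in the tables and tested, with 18 called higher and 0 called lower by edgeR, and a median log2 fold change of 0.10. Beside the background of 6.31%, this is 23.1% of the 78. At an unadjusted p below 0.05 edgeR gave 27 higher and 1 lower (backgrounds 14.3% and 13.1%), and DESeq2 called 18 higher and 1 lower (Sem1). For 11 of them every PEA library lay above every CON library (background 2.53%). The 4 with the smallest p among those higher were Fignl1, an ATPase of recombination (log2 fold change 0.54, adjusted p = 0.000937), Rfwd3, a ubiquitin ligase of the Fanconi pathway (0.39, adjusted p = 0.00104), Clspn, the mediator between ATR and CHK1 (0.72, adjusted p = 0.00176), and Parpbp, an inhibitor of recombination (0.89, adjusted p = 0.00365).

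The 4 with the smallest p among those lower were Sem1 (log2 fold change -0.21, adjusted p = 0.0720), Swi5 (-0.11), Sfr1 (-0.09) and Babam1 (-0.08), none of them past the threshold. By role, 9 of 39 further recombination genes, 5 of 16 further Fanconi genes and 4 of 17 further checkpoint genes were called higher by edgeR. Of the 6 further mismatch repair genes 0 were called, which is near the background of 6.31%. In 1 of them, Pms2, named after its values were seen, every PEA library lay above every CON library (log2 fold change 0.24, adjusted p = 0.0519).

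Non-homologous end joining, which seals breaks without a sister chromatid and works throughout the cell cycle, had 0 of 10 genes called by edgeR, DESeq2 or limma, and its median log2 fold change was 0.03. With 11.0% of all genes called by edgeR in either direction, 0 of 10 is near the background. At an unadjusted p below 0.05 edgeR gave 1 gene higher, Xrcc6, and 1 lower, Paxx, also near the shares over all genes (14.3% and 13.1%). The subunits of the Ku ring that caps broken ends, Xrcc5 and Xrcc6, had log2 fold changes of 0.03 (95% interval -0.07 to 0.12) and 0.15 (0.05 to 0.25, adjusted p = 0.0613). Prkdc, the kinase that Ku recruits, had 0.18 (0.005 to 0.36, unadjusted p = 0.0601, adjusted p = 0.205). Dclre1c had 0.12, and on the lower side Paxx had -0.28 (adjusted p = 0.0817), Lig4 -0.07 and Nhej1 -0.06.

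**Figure D5:**
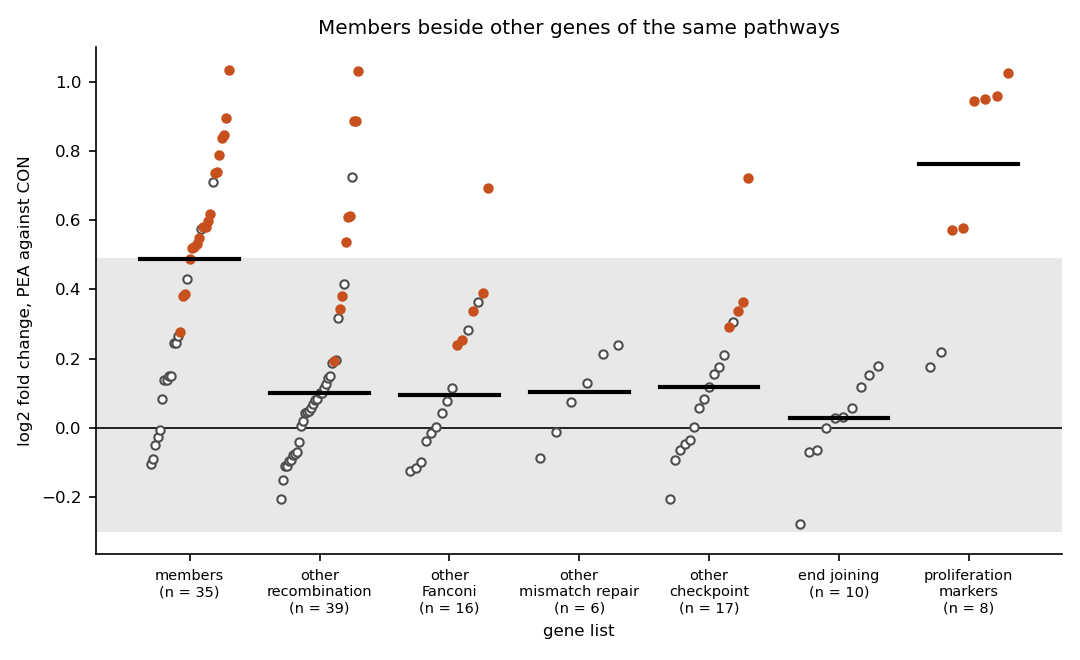
Points give log2 fold changes of the 35 members, of further genes of the same pathways, of end joining genes and of proliferation markers, sorted within each list, with filled points called higher, bars at the list medians and the grey band from the 5th to the 95th percentile of all genes tested. The medians are 0.49 for the members, 0.10 for the further recombination genes, 0.03 for end joining and 0.76 for the proliferation markers.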

How the data were processed

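The data comprise 12 RNA-seq libraries, 6 CON and 6 PEA, grouped by the labels. PEA replicate 2 has 2 label entries but 1 set of values, which entered once. The authors removed low-quality reads, aligned the rest to mm39 with STAR in Partek Flow, and deposited an estimated count per Ensembl gene. A second deposited table holds a signal, the estimated count divided by a median-ratio factor per library (DESeq2), called normalized count here. Above 0, 45.0% of the estimated counts differed from a whole number by over 0.001, and all were rounded.

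Differential expression was tested with edgeR 4.0.16 (quasi-likelihood, TMM, default filter on low counts, Benjamini-Hochberg, threshold 0.05) in R 4.3.3 over the whole table, in tests also run on simulated data. The biological coefficient of variation was 0.106. SE was derived from the test statistic, and 95% intervals are 1.96 SE. This normal multiplier makes them somewhat narrower than the test, so an interval can leave out 0 where the unadjusted p is above 0.05. Alternatives used DESeq2 1.42.0 and limma 3.58.1, other size factors and filters, a replicate block, a threshold of 0.01 and each library left out. Intervals reflect counting error and library-to-library spread alone. Annotation was GENCODE M39 (Python 3.11.15, scipy 1.17.1).

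The members and all gene lists were chosen with earlier results of these data known. Named in full were, per role, the genes with the smallest p and the largest absolute fold change, both genes of each ratio past the threshold, and Chek1, Chek2, Atm and Atr. Of the other lists, the 4 genes with the smallest p in each direction were named, with Mre11a, Xrcc5, Xrcc6 and Prkdc. Single values of 2 further genes of the rule are not reported here. Markers were named beside them, as were some genes whose exons overlap those of members. Other overlaps were left out, among them Fancl with Vrk2 (34.7% of exon bases, log2 fold change of Vrk2 0.19) and Fanci with Polg (18.2%, -0.03). Fancf and Rnf8 were not analysed here. The promoter of Rbbp8 was searched but not considered for printing.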

Additional observations from a re-analysis of the deposited data

Results flagged for a closer look

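Values of each member were examined in each treatment for a single library far from its group, 70 groups of 6 libraries in all. In 3 of them the gap between an extreme library and its nearest neighbour divided by the group's range, was above Dixon's critical value for 6 libraries, and chance gives about 1 in 20 groups. PEA replicate 3 was high in Palb2, with 66.8 normalized counts against 47.9 in the next library. PEA replicate 1 was high in Xrcc3, with 105 against 75.5. PEA replicate 3 was low in Exo1, with 149 against 186, and this library lay below CON replicate 5 at 162. Palb2 and Xrcc3 were not called with or without these libraries, and Exo1 was called in both cases.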

How the results depend on the processing

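The number of members called higher was between 18 and 22 in the alternatives that kept all libraries and the threshold, with 4.78% to 7.48% of all genes called higher in the same fits. With 1 library left out it was between 13 (without PEA replicate 5 or 6, with 3.79% and 3.72% of all genes) and 21 (without CON replicate 2, with 9.32%). Their median log2 fold change lay between 0.42 and 0.52. At an adjusted p below 0.01, 7 members and 9 further pathway genes were called higher, against 2.15% of all genes tested. Among the further pathway genes, 1 was called lower by DESeq2, and 0 to 1 with a library left out (Sem1, without CON replicate 2 or PEA replicate 1). Among end joining genes, 0 to 1 were called higher (Xrcc6, without CON replicate 2) and 0 to 1 lower (Paxx, without CON replicate 6). With a library left out, an alternative chosen after seeing the data, 9 to 14 members did not overlap between the groups (14 without CON replicate 2). Of the ratios, 2 passed with a pseudocount of 5, and 2 to 4 with a library left out. The cause of these changes was not tested.

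Same-numbered libraries did not deviate together (correlations of -0.08 to 0.06, none best with its own number), so replicate numbers do not pair them. With the replicate block 19 members were called (7.18% of all genes) and 0 ratios passed. The smallest exact p of that test is 0.0312, and the 4 ratios that passed without the block had an adjusted p of 0.125 with it. The sign turned for Atr, with a log2 fold change of 0.030 in limma-voom, 0.0025 with the replicate block and -0.048 to 0.053 with a library left out. With a library left out, Fancc ranged from -0.069 to 0.023 and the ratio of Fanca to Fancg from -0.029 to 0.13, both across 0. None of these values passed a threshold. Members with few counts had wide intervals, such as Palb2 (as few as 11 in a library, 95% interval of the log2 fold change 0.19 to 1.23).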
